A study of Mus musculus with 4 samples.

Results

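The mRNA levels of 9 genes of calcium/calmodulin signaling at the postsynaptic side of excitatory synapses were compared in mouse prefrontal cortex (PFC) with and without knockdown of *Ash1L*. They were taken by name, 9 of the 23420 gene symbols measured, and comprise the 4 genes of calcium/calmodulin-dependent kinase II (CaMKII: *Camk2a*, *Camk2b*, *Camk2d* and *Camk2g*), the nuclear kinase gene *Camk4*, the pseudokinase gene *Camkv*, the neurogranin gene *Nrgn*, and the calcineurin subunit genes *Ppp3ca* and *Ppp3r1*. RNA-seq counts were available for 4 PFC samples of C57BL6/J mice, 2 injected with GFP-AAV9 (control) and 2 with shRNA_ASH1L-AAV9 (*Ash1L* shRNA). Both groups thus carry AAV9 and GFP, and the punches were taken from GFP-fluorescent PFC, a mixture of infected and uninfected cells of all types. The *Ash1L* shRNA was driven by the U6 promoter, which is not restricted to one cell type. The paper calls the control virus scrambled shRNA AAV. Each sample pooled tissue of 3 mice per its methods, while 3 knockdown mice and 2 controls are counted in the series text. The mice were 6 to 8 weeks old per the labels and were injected at 5 weeks of age per the methods.

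CaMKII is among the most abundant proteins of the postsynaptic density. Calcium that enters through NMDA receptors loads calmodulin, calmodulin opens the kinase, and the kinase then phosphorylates a threonine in its own regulatory segment and stays active after calcium has fallen. The alpha and beta forms dominate in forebrain neurons, and the gamma and delta forms are found more widely across tissues. Neurogranin holds calmodulin at low calcium, and calcineurin, a calmodulin-dependent phosphatase, opposes the kinases in synaptic depression and activates NFAT transcription factors.

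Coding stretches are shown around the autophosphorylated threonine of the CaMKII genes and at the calmodulin-binding motif of neurogranin. They set the CaMKII genes side by side and show how alike the transcripts of those genes are, which bears on how reads are assigned. They were read from GENCODE vM21 transcripts, 5′ to 3′ on the coding strand, and each lies within 1 exon. In the CaMKII genes the stretch has 60 bases and the capitals mark the codon of the autophosphorylated threonine, codon 287 in all 3. In *Nrgn* the capitals mark the isoleucine and glutamine codons, from codon 33, that name the calmodulin-binding IQ motif.
Camk2b (chr11:5988955-5989014 of mm10, minus strand, exon 11): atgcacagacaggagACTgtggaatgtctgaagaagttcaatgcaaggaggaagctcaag
Camk2d (chr3:126797726-126797785, plus strand, exon 11): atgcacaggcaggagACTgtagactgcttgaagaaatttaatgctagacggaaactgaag
Camk2g (chr14:20760397-20760456, minus strand, exon 11): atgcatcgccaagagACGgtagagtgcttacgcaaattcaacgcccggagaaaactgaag
Nrgn (chr9:37546046-37546105, minus strand, exon 2): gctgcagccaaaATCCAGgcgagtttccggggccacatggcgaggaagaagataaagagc
Between *Camk2b* and *Camk2d* 12 of the 60 bases differed, between *Camk2d* and *Camk2g* 17, and between *Camk2b* and *Camk2g* 20. Over whole transcripts, the longest run of identical bases shared by any pair of the 4 CaMKII genes was 32, between *Camk2a* and *Camk2b*. Exons of 7 of the 9 genes overlapped no other annotated gene. *Ppp3r1* shared 462 exonic bases (14.3% of its length) with *Wdr92* on the same strand, and *Camk4* shared 72 bases with an antisense transcript.

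Total counts per sample ran from 14251190 in control sample 1 to 35764874 in control sample 2. The counting error of the smallest count of each of the 9 genes was between 0.768% and 2.34%, less than the spread between samples for all of them. *Ash1l*, the targeted gene, had 5961 and 7057 normalized counts in control samples 1 and 2, and 5246 and 3345 in *Ash1L* shRNA samples 1 and 2. Both *Ash1L* shRNA samples lay below both controls, with a fitted log2 change of -0.60 ± 0.22 (SE), unadjusted p = 0.0362, adjusted p = 0.275 by edgeR's quasi-likelihood test). Normalized counts are counts scaled by TMM to a common library size. Following the definition of the study, a gene was called DOWN or UP at an unadjusted p under 0.05 and at least a 1.2-fold change, here in edgeR's quasi-likelihood test. Of all 16232 genes tested, 8.28% were DOWN and 8.61% were UP (1344 and 1397 genes). Scaled to equal levels of 12 pan-neuronal markers, the split was 699 DOWN and 2389 UP, and the median log2 change of all genes moved from -0.0027 to 0.12.

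All 9 genes passed the filter on low counts, and none was near it. *Camk2a*, *Camk2g*, *Camk4* and *Camkv* were DOWN, by between 25.2% and 33.0% of the control level, and *Camk2d* was UP by 30.4%. *Camk2b*, *Nrgn*, *Ppp3ca* and *Ppp3r1* were not called. Thus 44.4% of the 9 genes were DOWN and 11.1% were UP. The median log2 fold change of the 9 genes was -0.42, against -0.0027 over all genes tested. Both *Ash1L* shRNA samples lay below both controls in 6 of the 9 genes and above them in 2, beside 26.8% and 26.5% of all genes tested. With p-values adjusted by Benjamini-Hochberg, 0 of the 9 reached 0.05 in edgeR's likelihood ratio test (479 of all genes did) or in DESeq2 (421 did). In edgeR's quasi-likelihood test 0 of the 9 reached it (0.00616% of all genes did), while 5 were under 0.05 unadjusted. The adjusted p ran from 0.262 in *Camkv* to 0.814 in *Ppp3ca*. The calls depended on single samples, in these 9 genes as in all genes tested, where left-out samples also moved the numbers called. Without control sample 2, the deepest, 0 genes were DOWN, and without *Ash1L* shRNA sample 2, 1 was. Without control sample 1, 3 were DOWN, and without *Ash1L* shRNA sample 1, 5 were, and 5 of the 9 then had an adjusted p under 0.05, as did 2502 of the 16494 genes tested without that sample. *Camk2d* was the 1 gene UP, and it was not called without either control sample or without *Ash1L* shRNA sample 2. In all 9 genes but *Ppp3r1*, *Ash1L* shRNA sample 2 lay farther from the control mean than sample 1.

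**Figure D1:**
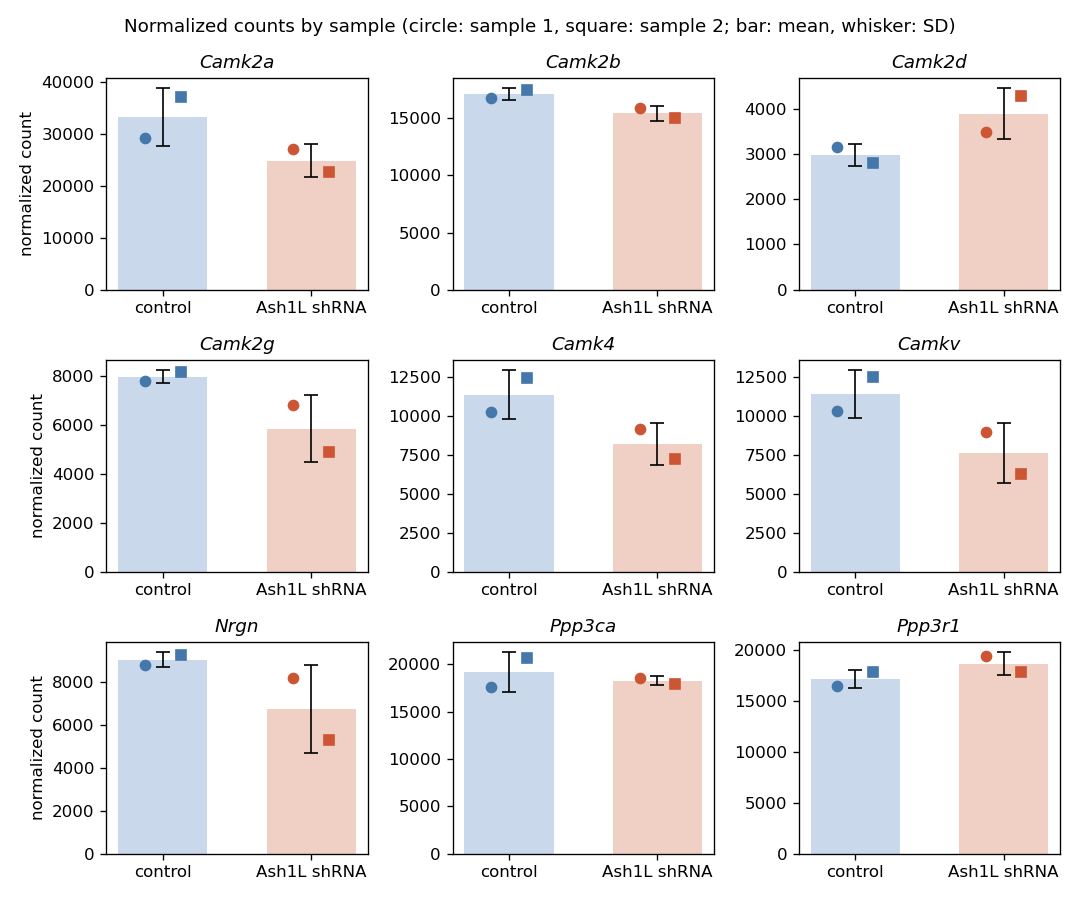
Normalized counts (y axis, from 0) of the 9 genes in 2 control and 2 *Ash1L* shRNA samples (x axis), with circles for sample 1, squares for sample 2, bars for means and whiskers for the SD. In *Camk2a*, *Camk2b*, *Camk2g*, *Camk4*, *Camkv* and *Nrgn* both *Ash1L* shRNA samples sit below both controls, in *Camk2d* and *Ppp3r1* above them, and in *Ppp3ca* the groups overlap.

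*Camk2a* (ENSMUSG00000024617, chromosome 18 from 60925618 to 60988152 of mm10) encodes the alpha subunit, the form most typical of forebrain excitatory neurons. It ranked 49 by mean normalized count among all genes. Its normalized counts were 29190 and 37060 in control samples 1 and 2, and 27010 and 22560 in *Ash1L* shRNA samples 1 and 2. The groups did not overlap, but control sample 1 lay nearer to *Ash1L* shRNA sample 1 than to control sample 2. The means were 33120 ± 5569 (SD, n = 2) and 24780 ± 3150 (SD, n = 2), a fitted log2 change of -0.42 ± 0.17 (SE) (adjusted p = 0.285, edgeR's quasi-likelihood test). The call was lost without control sample 2, at -0.24, and without *Ash1L* shRNA sample 2, at -0.29. It was made in 9 of 16 alternatives that kept all 4 samples, beside 14 of 16 for each of *Camk2g*, *Camk4* and *Camkv*.

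*Camk2b* (ENSMUSG00000057897, chromosome 11 from 5969644 to 6066362) encodes the beta subunit, which also binds actin filaments. It had 16760 and 17480 normalized counts in the controls and 15930 and 15000 in the *Ash1L* shRNA samples. The groups did not overlap, yet the difference was small. The log2 fold change of -0.15 (standard error 0.11, unadjusted p = 0.238) did not pass the test. Within each sample, the log2 ratio of *Camk2a* to *Camk2b* counts, which needs no library scaling, was 0.80 and 1.08 in the controls and 0.76 and 0.59 in the *Ash1L* shRNA samples. The mean ratio was thus lower by 0.27 on the log2 scale in the *Ash1L* shRNA samples, with no overlap. Its size rested on the controls, with a difference of -0.41 without control sample 1 and -0.12 without control sample 2, and it was -0.18 without *Ash1L* shRNA sample 2. The exact two-sided permutation test gave p = 0.333, the smallest that 2 against 2 samples allow (0.667 after adjustment over the 4 ratios tested). The ratios of *Camk2a* to *Nrgn* and to *Camk2g*, added after the values were seen, differed between the groups by 0.04 and 0.05 on the log2 scale (exact permutation p = 1 and 0.667).

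*Camk2g* (ENSMUSG00000021820, chromosome 14 from 20734875 to 20794088) encodes the gamma subunit, known in neurons as a carrier of calcium/calmodulin to the nucleus. Its normalized counts were 7781 and 8150 in the controls, which lay close together, and 6831 and 4870 in the *Ash1L* shRNA samples, which did not. The fitted log2 change was -0.45 ± 0.17 (SE) (adjusted p = 0.282). Leaving out control sample 1, control sample 2 or *Ash1L* shRNA sample 2 ended the call, at -0.47, -0.42 and -0.22.

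*Camk2d* (ENSMUSG00000053819, chromosome 3 from 126596302 to 126846326), the gene of the delta subunit that prevails in heart muscle, moved the other way. It had 3152 and 2809 normalized counts in the controls and 3488 and 4283 in the *Ash1L* shRNA samples. Both *Ash1L* shRNA samples lay above both controls, sample 2 by more. The means were 2980 ± 243 (SD, n = 2) and 3886 ± 562 (SD, n = 2), a fitted log2 change of 0.38 ± 0.14 (SE) (adjusted p = 0.270). The values were 0.48 without control sample 1, 0.30 without control sample 2 and 0.23 without *Ash1L* shRNA sample 2.

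**Figure D2:**
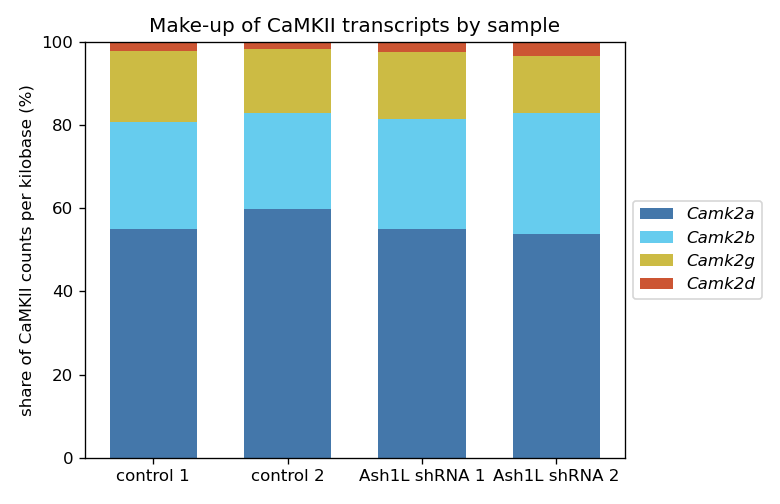
Share (y axis, %) of each CaMKII gene in the summed normalized counts per kilobase of exonic length, by sample (x axis). *Camk2a* holds between 53.8% and 60.0% in every sample, and the share of *Camk2d* is highest in *Ash1L* shRNA sample 2, at 3.39%.

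Per kilobase of exonic length, *Camk2a* made up 55.1% and 60.0% of the 4 CaMKII genes in control samples 1 and 2, and 54.9% and 53.8% in *Ash1L* shRNA samples 1 and 2. The share of *Camk2b* was 25.9% and 23.1% in the controls and 26.5% and 29.3% in the *Ash1L* shRNA samples. *Camk2g* held 17.1% and 15.4%, and then 16.2% and 13.5%. *Camk2d* held 1.97% and 1.51% in the controls and 2.36% and 3.39% in the *Ash1L* shRNA samples. Exonic length counts every annotated exon of a gene, retained introns included, so the level of *Camk2d* per length is a low estimate. The same can hold to a differing degree for the other genes, so shares between genes depend on the annotation. The summed level of the 4 genes was 7102 and 8278 normalized counts per kilobase in the controls and 6586 and 5617 in the *Ash1L* shRNA samples. The sum was therefore lower in both *Ash1L* shRNA samples, while the order of the 4 genes was the same in all 4 samples.

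*Camk4* (ENSMUSG00000038128, chromosome 18 from 32934931 to 33191228) encodes the kinase that phosphorylates CREB in the nucleus. It had 10300 and 12490 normalized counts in the controls and 9187 and 7266 in the *Ash1L* shRNA samples. All 4 samples were apart from one another, with no overlap of the groups. The fitted log2 change was -0.47 ± 0.16 (SE) (adjusted p = 0.262). It was -0.33 without control sample 2 and -0.31 without *Ash1L* shRNA sample 2, and the call was lost in both.

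*Camkv* (ENSMUSG00000032936, chromosome 9 from 107935674 to 107949691) encodes a kinase-like protein without kinase activity that binds calmodulin and is found in dendritic spines. It had the lowest log2 change of the 9 genes, with 10340 and 12490 normalized counts in the controls and 9001 and 6288 in the *Ash1L* shRNA samples. *Ash1L* shRNA sample 2 lay well below the other 3 samples. The means were 11420 ± 1523 (SD, n = 2) and 7645 ± 1919 (SD, n = 2), a fitted log2 change of -0.58 ± 0.20 (SE) (adjusted p = 0.262). The call was lost without control sample 2, at -0.44.

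*Nrgn* (ENSMUSG00000053310, chromosome 9 from 37544492 to 37552904), the gene of neurogranin, had 8808 and 9302 normalized counts in the controls. In *Ash1L* shRNA samples 1 and 2 it had 8205 and 5309. Sample 1 thus lay just under the controls and sample 2 far below them. The log2 fold change was -0.42, as in *Camk2a*, but with a larger standard error of 0.21, and *Nrgn* was not called (unadjusted p = 0.0877). Against the control mean, its log2 difference was -0.14 in *Ash1L* shRNA sample 1 and -0.77 in sample 2. Without *Ash1L* shRNA sample 1 it was DOWN at -0.78.

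The calcineurin subunits differed little between the groups. *Ppp3ca* (ENSMUSG00000028161, chromosome 3 from 136670124 to 136937727), the gene of the main catalytic subunit in brain, had 17630 and 20620 normalized counts in the controls and 18590 and 17950 in the *Ash1L* shRNA samples. The groups overlapped, and the log2 fold change of -0.07 (standard error 0.13, unadjusted p = 0.621) turned to 0.05 both without control sample 2 and with pan-neuronal marker scaling. *Ppp3r1* (ENSMUSG00000033953, chromosome 11 from 17159263 to 17200375), the gene of the calcium-binding regulatory subunit, had 16460 and 17760 in the controls and 19390 and 17820 in the *Ash1L* shRNA samples. *Ash1L* shRNA sample 2 was almost level with control sample 2, and the fitted log2 change was 0.12 ± 0.12 (SE, unadjusted p = 0.346). The log2 ratio of *Ppp3ca* to *Ppp3r1* counts was 0.10 and 0.22 in the controls and -0.06 and 0.01 in the *Ash1L* shRNA samples. This ratio was lower by 0.18 on average in the *Ash1L* shRNA samples, again at the smallest exact permutation p of 0.333 (0.667 after adjustment over the 4 ratios).

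**Figure D3:**
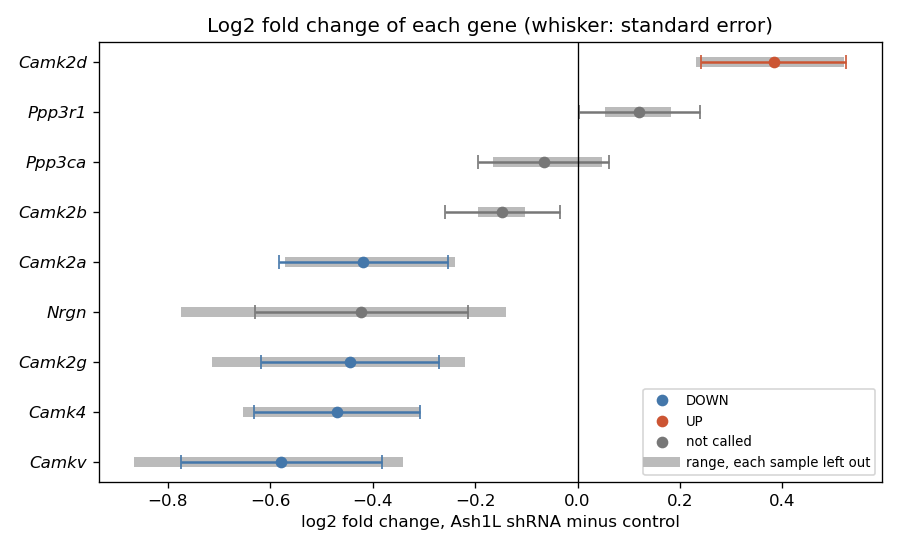
Log2 fold change, *Ash1L* shRNA minus control (x axis), of the 9 genes (y axis) with TMM scaling, as points with standard errors, coloured by call; gray bars give the range with each sample left out in turn. *Camkv* is lowest at -0.58 and *Camk2d* highest at 0.38, and the gray bar of *Ppp3ca* crosses 0; scaled to excitatory neuron markers, *Camk2a*, *Camk2b* and *Ppp3ca* turn to 0.02, 0.30 and 0.39.

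The level of each transcript per length placed the 9 genes in an order, which depends on the annotated exonic length of each gene. In the controls, normalized counts per kilobase were 6232 for *Nrgn*, 5301 for *Ppp3r1*, 4437 for *Camk2a*, 3495 for *Camk4*, 3034 for *Camkv*, 1916 for *Ppp3ca*, 1876 for *Camk2b*, 1244 for *Camk2g* and 132.5 for *Camk2d*. Control samples of neighbours in this order overlapped for *Camk4* and *Camkv*, and for *Ppp3ca* and *Camk2b*. In the *Ash1L* shRNA samples *Ppp3r1* came first at 5764, before *Nrgn* at 4651.

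Markers of cell types were set beside these values, since *Camk2a*, *Camkv*, *Camk4* and *Nrgn* are genes of excitatory neurons. All 10 excitatory neuron markers (such as *Slc17a7*, the vesicular glutamate transporter) had negative log2 fold changes, 5 of the 10 were DOWN and 0 UP, and their median log2 fold change was -0.41, beside -0.42 for the 9 genes. Their summed level was 1444 to 1607 CPM, counts scaled by library size, in the controls and 1105 to 1309 in the *Ash1L* shRNA samples. Most of that sum was *Slc17a7*, with 924.2 and 1069 CPM in the controls and 866.5 and 754.2 in *Ash1L* shRNA samples 1 and 2. At -0.30, *Slc17a7* was not called. Of the 12 pan-neuronal markers, 2 were DOWN and the summed level was 8832 to 9033 CPM in the controls and 7219 to 8128 in the *Ash1L* shRNA samples. Of 10 interneuron markers, 3 were DOWN, with sums of 717.5 to 799.9 and 679.8 to 700.9 CPM. Of 7 striatal markers, 3 were UP and 1 was DOWN, and the sum was 171.0 to 180.9 CPM in the controls and 208.1 to 255.6 in the *Ash1L* shRNA samples. Of 10 astrocyte markers, 6 were DOWN, with sums of 5527 to 5831 and 3311 to 4467 CPM. Most of each sum was *Slc1a2*, DOWN at -0.47, with 3159 and 3467 CPM in the controls and 2757 and 2013 in the *Ash1L* shRNA samples. Microglia markers split the *Ash1L* shRNA samples, with sums of 1190 and 467.7 CPM in samples 1 and 2, and 876.7 to 900.0 CPM in the controls. None of these markers was at 0. In bulk tissue, fewer cells of a type and less RNA per cell cannot be told apart, and the part of cell composition in the results was not tested. In the paper, staining of infected PFC for the neuronal marker NeuN showed no significant neuron loss, without separation by neuron type.

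With library sizes set so that the 10 excitatory neuron markers were equal on average in every sample, an alternative chosen after the marker levels were seen, the median of all genes rose to 0.45. On that scale 0 of the 9 genes were DOWN and 2 were UP, *Camk2d* and *Ppp3r1*, while of all 16232 genes 132 were DOWN and 5579 UP. This scaling shifts all genes by nearly the same amount, so the distance of each gene from the median of all genes was largely fixed in advance. *Camk2g*, *Camk4* and *Nrgn* lay at -0.02, -0.03 and -0.0051, *Camk2a* at 0.02 and *Camkv* at -0.15, all below that median. *Camk2b* lay at 0.30 and *Ppp3ca* at 0.39, also below that median. *Ppp3r1* lay at 0.57 and *Camk2d* at 0.85, above it.

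The other genes of the pathway were taken from 7 lists. The calmodulin genes *Calm2* and *Calm3*, which encode one identical protein, were not called in edgeR's test. *Calm2* had a log2 fold change of -0.21 and *Calm3* one of 0.09, and in both the groups overlapped. *Pcp4*, which like neurogranin binds calmodulin through an IQ motif, had -0.04, and *Gap43*, the growth cone protein with the same motif, had 0.28. In all, 0 of the 6 genes of this list were DOWN or UP, with 0 at an unadjusted p under 0.05.

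Of the 11 genes of the CaM kinase cascade and the CaMKII inhibitors, 3 were DOWN and 0 UP, and the median log2 fold change was -0.19. Both genes of the inhibitor proteins that bind active CaMKII were among the 3. *Camk2n1* had 25880 and 29860 normalized counts in the controls and 23750 and 18610 in the *Ash1L* shRNA samples, for a fitted log2 change of -0.40 ± 0.16 (SE). *Camk2n2* had 685.9 and 495.2, and then 424.6 and 386.2, a fitted log2 change of -0.53 ± 0.19 (SE). Both inhibitor transcripts were thus lower in both *Ash1L* shRNA samples than in either control, as *Camk2a* was. The *Camk2n1* call was lost without control sample 1 (-0.49), control sample 2 (-0.29) or *Ash1L* shRNA sample 2 (-0.23), and in 6 of 15 alternatives that kept the 4 samples. The *Camk2n2* call was lost without control sample 1 (-0.28) or *Ash1L* shRNA sample 2 (-0.46), and in 3 of the 15. *Camkk2*, the gene of a kinase that activates CaMKIV and AMPK, had 7140 and 8319 in the controls and 5740 and 2875 in the *Ash1L* shRNA samples, for a fitted log2 change of -0.84 ± 0.32 (SE). Its fall was largest in *Ash1L* shRNA sample 2. Its log2 fold change was -0.43 without that sample and -1.43 without *Ash1L* shRNA sample 1, and the call was lost without either control sample, at -0.94 without sample 1 and -0.73 without sample 2. *Camkk1*, the gene of the other activating kinase, had 3373 and 3332 and then 3286 and 5325, with overlapping groups. Not called were *Camk1* at -0.16, *Camk1d* at -0.19, *Camk1g* at 0.24 and *Pnck* at -0.23, which encode kinases of the CaMKI family.

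On the calcineurin side, 0 of 11 genes were DOWN and 2 were UP, with a median of -0.09. *Rcan1*, a calcineurin inhibitor whose gene is itself a known target of the calcineurin-NFAT pathway, had 1928 and 1594 normalized counts in the controls and 2802 and 3132 in the *Ash1L* shRNA samples. Both *Ash1L* shRNA samples were far above both controls. The fitted log2 change was 0.75 ± 0.14 (SE) (unadjusted p = 0.0013, adjusted p = 0.240), and the call was made in each of the 15 alternatives computed for it with all 4 samples, which did not include excitatory neuron marker scaling, and with each sample left out in turn, between 0.62 and 0.91. *Chp1*, which encodes a calcineurin-like EF-hand protein, was the other, at 0.36. The other catalytic genes *Ppp3cb* and *Ppp3cc* had -0.09 and 0.13, the inhibitor gene *Rcan2* had -0.35, and *Akap5*, which anchors calcineurin at the synapse, had -0.16. These 4 were not called. *Ppp3r2* was the lowest of the list at -1.005, from 32.74 normalized counts at most, and was not called.

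Of the 14 transcription factors and coactivators downstream, 0 were DOWN and 2 (14.3%) were UP, beside 8.28% and 8.61% of all genes tested. *Crem*, a member of the CREB family with an activity-induced isoform, was UP at 0.75 (standard error 0.22) and *Mef2a* at 0.32 (standard error 0.10). *Creb1* at 0.11, *Crtc1* at -0.16, *Nfatc3* at -0.03 and *Mef2c* at -0.50 were not called. *Mef2c* had 22100 and 26880 normalized counts in the controls, and 21540 and 13160 in the *Ash1L* shRNA samples.

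Of 14 genes of CaMKII binding partners and targets at the postsynaptic density, 6 were DOWN and 0 UP, with a median of -0.25. *Ppp1r9b*, which encodes spinophilin, a spine protein that targets protein phosphatase 1, was lowest. It had 14690 and 16340 normalized counts in the controls and 11770 and 8690 in the *Ash1L* shRNA samples, for a fitted log2 change of -0.60 ± 0.17 (SE). The others DOWN were *Actn4* (-0.53), *Kalrn* (-0.51), *Lrrc7* (-0.42), *Dlgap1* (-0.35) and *Ppp1r9a* (-0.35), named as the remaining calls of the list. *Dlg4*, the gene of the scaffold PSD-95, had -0.11 and *Itpka*, an actin-binding inositol trisphosphate kinase gene, had -0.16, both not called. *Actn2* was highest at 0.37 and was not called.

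**Figure D4:**
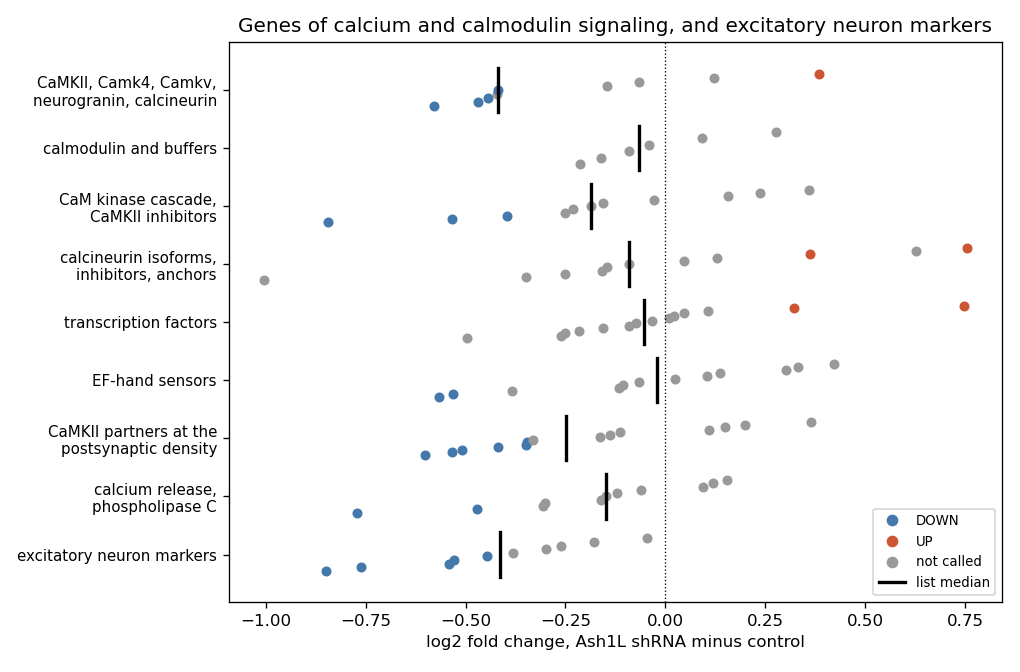
Log2 fold change, *Ash1L* shRNA minus control (x axis), with TMM scaling, of each gene in the 9 genes, 7 pathway lists and the excitatory neuron markers (y axis); each point is a gene, coloured by call, and black lines are list medians. The medians of the 9 genes (-0.42) and of the excitatory neuron markers (-0.41) lie farther left than those of the 7 pathway lists (-0.25 to -0.02).

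Across the 7 lists together, 13 of 79 genes were DOWN and 4 were UP, beside 8.28% and 8.61% of all genes tested. These numbers moved with left-out samples, as did those over all genes. Without control sample 2, 2 were DOWN and 1 was UP, and without *Ash1L* shRNA sample 1, 24 were DOWN and 12 UP. Without control sample 1, 7 were DOWN, and without *Ash1L* shRNA sample 2, 8.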

How the data were processed

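RNA-seq of PFC was analysed for 2 control and 2 *Ash1L* shRNA samples, grouped by their labels. The deposited files hold unnormalized read counts by gene symbol. The authors aligned paired-end reads of stranded, ribosomal RNA-depleted libraries to mm10 (RNA STAR) and counted reads with featureCounts, per the paper and the file headers, whereas the labels name Cutadapt and TopHat2. Settings for strand and multiple mapping are not given in the sources used here. Overlapping or near-identical genes may share reads.

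Genes were filtered (filterByExpr), scaled with TMM and tested in edgeR 4.0.16 (R 4.3.3) with the quasi-likelihood F test, *Ash1L* shRNA against control, two-sided, with Benjamini-Hochberg adjustment over 16232 genes. Standard errors were derived as |log2 change|/√F. A pseudocount of 1 was used for per-sample log2 differences. DESeq2 1.42.0 was an alternative. Nothing states that samples carrying one replicate number were processed together, and their deviations from the group means correlated at -0.105, so p-values rest on the spread between pools alone. The replicates exceeded counting error, with a chi-square per degree of freedom of 13.0 in the controls and 37.0 in the *Ash1L* shRNA samples.

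Exonic lengths, GC content and positions came from GENCODE vM21 (mm10) by symbol, and 93.0% of symbols matched. On simulated counts for this comparison over 16232 genes, the quasi-likelihood test called 61 of 66 genes changed 2-fold and all 67 changed 8-fold. It also called 793 of 16032 unchanged genes. Recovery below 2-fold, where all of the 9 genes lie, was not tested. The 9 genes and the lists were chosen with earlier results of these data known. Genes outside the 9 were named by a rule (a stated set, the ends of each list's range, the genes nearest to *Camk2a* and to *Nrgn*), and some genes are not reported here. *Slc17a7*, *Slc1a2* and the remaining calls of small counts were named after their values were seen.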

Additional observations from a re-analysis of the deposited data

How the results depend on the processing

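The 4 genes DOWN among the 9 became 2 with the replicate number as a block, 2 with the block and a GC content correction, 2 with pan-neuronal marker scaling, 0 with excitatory neuron marker scaling and 0 at a 1.5-fold limit. The 1 gene UP became 0, 0, 1, 2 and 0 under the same settings. With each sample left out in turn, 0 to 5 were DOWN and 0 to 1 UP, the lone sample of a group being assumed to vary like the others. Crossing the pairs, tried only once the data had been seen, gave 5 DOWN and 1 UP. The block ended the calls of *Camk2a* (-0.41), *Camk4* (-0.47) and *Camk2d* (0.38) with log2 changes close to those without it and left *Nrgn* uncalled (-0.46). With the block and the gene length correction, *Camk4* (-0.47) and *Camk2d* (0.43) kept their calls, *Nrgn* was DOWN (-0.48) and *Camk2a* was not called (-0.38). Pairing by number is not established. Their median log2 fold change lay between -0.42 and -0.30 in the other alternatives with all samples, and at 0.025 with excitatory neuron marker scaling.

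Across the 7 pathway lists, the 13 DOWN genes became 7 with pan-neuronal marker scaling, 8 with the block and GC correction, 0 with excitatory neuron marker scaling and 3 at 1.5-fold. They ran from 2 to 24 with each sample left out. The 4 UP genes became 8, 3, 24 and 2 under the same settings, and ran from 1 to 12. The log2 fold change of *Ash1l* lost its call with pan-neuronal marker scaling (-0.49), gene length correction (-0.55), block and length correction (-0.59) and excitatory neuron marker scaling (-0.18). With samples left out it ran from -0.97 to -0.31 and was called only without *Ash1L* shRNA sample 1. Over all genes, DOWN and UP numbered 1020 and 1052 with the block, and 968 and 1130 with the block and GC correction. They numbered 699 and 2389 with pan-neuronal marker scaling, 132 and 5579 with excitatory neuron marker scaling and 491 and 765 at 1.5-fold. Left-out samples gave 306 to 2718 DOWN and 423 to 2368 UP. The cause was not tested, other than that scaling to markers shifts all genes together.

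Some signs turned. With excitatory neuron marker scaling, which raised the median of all genes to 0.45, *Camk2a* lay at 0.025, *Camk2b* at 0.30 and *Ppp3ca* at 0.39. With pan-neuronal marker scaling, *Ppp3ca* lay at 0.051, *Pcp4* at 0.074, *Ppp3cb* at 0.024, *Nfatc3* at 0.087, *Vsnl1* at 0.053 and *Dlg4* at 0.0043. *Nfatc3* lay at 0.0098 with library-size scaling, 0.0052 with the length correction and 0.0090 with block and length. With samples left out, *Ppp3ca* ran from -0.17 to 0.047, *Pcp4* from -0.22 to 0.17, *Camkk1* from -0.027 to 0.66, *Akap5* from -0.30 to 0.0034, *Nfatc3* from -0.12 to 0.044 and *Itpka* from -0.34 to 0.048. The depths allow small differences to be counted, and 2 samples per group limit what they show.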

Other observations

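Of 12 genes of neuronal EF-hand calcium sensors, 2 were DOWN and 0 UP, with a median log2 fold change of -0.02. *Hpca*, the gene of hippocalcin, had 7349 and 10580 normalized counts in the controls and 6676 and 5740 in the *Ash1L* shRNA samples, for a fitted log2 change of -0.53 ± 0.19 (SE). *Kcnip2*, which encodes an auxiliary subunit of Kv4 potassium channels, was lowest at -0.57, and *Kcnip1* was highest at 0.42 and not called. *Vsnl1*, the visinin-like protein 1 gene, had -0.07. Of 11 genes of calcium release and phospholipase C signaling, 2 were DOWN and 0 UP, with a median of -0.15. *Itpr1*, the gene of the main neuronal inositol trisphosphate receptor, had 38480 and 38970 normalized counts in the controls and 31280 and 24570 in the *Ash1L* shRNA samples, for a fitted log2 change of -0.47 ± 0.15 (SE). *Plcb4* was highest at 0.15. The *Hpca* call was lost without control sample 2 (-0.25) and without *Ash1L* shRNA sample 2 (-0.42), and the *Itpr1* call without control sample 1 (-0.47) and without control sample 2 (-0.47).

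Among 5528 other genes with a mean normalized count of at least 1000, those nearest to *Camk2a* over the 4 samples were *Mau2*, *Abcf1*, *Negr1*, *Vps52* and *Hras1*, at Euclidean distances from 0.0232 to 0.0627 between log2 normalized counts centred on the control mean. Nearest to *Nrgn* were *Paqr7*, *Hn1*, *Neto1* and *Itm2b*, at distances from 0.0248 to 0.0773. Among the 9 genes, the nearest pairs were *Nrgn* with *Camk2g* at 0.100 and *Camk2a* with *Camk4* at 0.110, and *Camk2d* was farthest from *Camkv* at 1.52. With 4 samples, many genes lie this near, and the distances are descriptions.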
